A study of Mus musculus with 3 samples.

Results

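The genes of the unfolded protein response and the integrated stress response were followed in mouse myeloid leukaemia cells that had become resistant to cytarabine (Ara-C), a deoxycytidine analogue used against leukaemia. The 10 genes were Xbp1, Dnajb9, Hspa5 and Herpud1, taken as the Xbp1 arm, and Atf4, Atf3, Ddit3, Trib3, Asns and Chac1, taken as the Atf4 arm. They were found by the gene symbol of each probe, and all 10 were among the 17742 genes measured, each through 1 probe. The resistant group was a single array of B117HS cells, selected out of B117P in rising cytarabine concentrations. Selection lasted some 10 weeks and left an IC50 roughly 10 times the parental one. The sensitive group was 2 arrays of B117P, the parental line. Both lines came from bone marrow of the BXH-2 strain and were grown in the same medium, and the labels do not say whether cytarabine was present when the RNA was taken. Each line stands for 1 selection history. Whether the sensitive arrays represent separate cultures is not stated, so p-values reflect no more than array-to-array spread, possibly technical. The resistant array has no replicate and was assumed to vary like the sensitive ones.

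When unfolded protein gathers in the endoplasmic reticulum (ER), 3 membrane sensors respond, encoded by Ern1, Eif2ak3 and Atf6. The Ern1 product splices Xbp1 mRNA, and the protein made from the spliced form switches on genes of ER protein import, folding and degradation. The Eif2ak3 product and its sister kinases, which sense amino acid shortage, double-stranded RNA or lack of haem, phosphorylate the initiation factor eIF2. This lowers translation in general and raises that of Atf4, a transcription factor whose own targets include Atf3, Ddit3, Trib3, Asns and Chac1. In blood lineages Xbp1 is best known for its part in strongly secreting cells such as plasma cells. The arrays measured total mRNA of each gene, so neither Xbp1 splicing nor Atf4 translation was read.

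Several promoters carry known stress elements, shown here as background. The arms were set by gene name and not by these elements. Windows of 300 bases, from 250 before to 50 after each annotated start, were available for all 10 genes (RefSeq sequences, build GRCm38.p6). They were searched on both strands for exact matches to 4 elements. These were the ER stress element ERSE (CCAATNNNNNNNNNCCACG), the element ERSE-II (ATTGG, any 1 base, then CCACG), the unfolded protein response element UPRE (TGACGTGG) and the C/EBP-ATF composite element (TGATGNAA). Capitals below mark the matches, each line runs 5′ to 3′ on the gene's strand, and a match on the other strand reads as its reverse complement.
Hspa5: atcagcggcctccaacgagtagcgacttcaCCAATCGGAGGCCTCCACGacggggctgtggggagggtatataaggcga
Herpud1: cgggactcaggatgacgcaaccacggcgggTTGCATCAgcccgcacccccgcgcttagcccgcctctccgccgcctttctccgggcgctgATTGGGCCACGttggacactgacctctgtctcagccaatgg
Atf3: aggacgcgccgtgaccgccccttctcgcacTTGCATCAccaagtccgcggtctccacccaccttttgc
Asns: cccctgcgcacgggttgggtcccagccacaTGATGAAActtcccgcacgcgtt
Chac1: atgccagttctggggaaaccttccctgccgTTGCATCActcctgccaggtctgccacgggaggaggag
The Hspa5 stretch lies at chr2:34771995-34772073 on the plus strand and holds an ERSE. The Herpud1 stretch, chr8:94386287-94386417 on the plus strand, holds an ERSE-II and, upstream of it, a C/EBP-ATF composite element. The other 3 hold a C/EBP-ATF composite element, Atf3 at chr1:191183406-191183473 and Asns at chr6:7693210-7693262 on the minus strand and Chac1 at chr2:119351019-119351086 on the plus strand. Trib3 has the same composite element 15 to 22 bases past its start, which is not printed.

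In the Atf4 arm, 4 of 6 windows held the composite element, against 4.51% of the 27025 genes with a window. That arm is made up of Atf4 and known targets of it, so the share is no test of the arm. An ERSE was found in 0.137% of those genes, an ERSE-II in 0.0444% and a UPRE in 0.714%. The windows of Xbp1, Dnajb9, Atf4 and Ddit3 held no exact match to any of the 4 elements, which says only that these letters are not in these windows. No matches overlapped in the stretches shown.

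The resistant array was dimmer than the sensitive arrays, and every difference is therefore given on 2 scales. Median probe intensity was 24.9 units on the resistant array, against 58.4 and 72.5 units on the sensitive arrays. Over 6167 probes with a mean of at least 500 units the median log2 ratio of resistant to sensitive was -0.77. The first scale is log2(intensity + 50) of the values as deposited, and the second applies it once 1 factor per array has brought the bright probes to a common level. Scaling raised the median log2 difference over all genes from -0.33 to -0.06, and by about 0.7 for bright genes. A call needed a limma adjusted p (Benjamini-Hochberg, over all genes) under 0.05. It also needed the resistant array to lie 1 log2 unit or more above both sensitive arrays, or below both. "Rose" and "fell" are used below only of genes called on both scales. Of all genes, 4.84% were called higher on both scales and 5.1% lower. Among the 5318 genes with a mean of at least 500 units, which most of the members are, these shares were 8.07% and 9.31%. As deposited alone, 5.23% of all genes were called higher and 18.5% lower. Of the 5318 brighter genes, 471 were called higher and 1872 lower on that scale.

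Of 9 markers of the labelled myeloid type, 7 read at least 50 units on all 3 arrays, but they did not move together. As deposited, Mpo, Kit and Ptprc differed by 0.010, -0.013 and -0.28 log2 units and Cebpa by 0.98. Spi1 (-2.06), Itgam (-1.89), Csf3r (-1.78) and Csf1r (-5.14) were lower on the resistant array, and Csf1r read 28.0 units there, against 2413 and 3009 units on the sensitive arrays. Cd33 was dim and differed by -0.45. Markers of B lymphoid and plasma cells, the other lineage with high Xbp1, summed to 196 units over 8 genes on the resistant array and to 1414 and 1584 units on the sensitive arrays. Most of the sensitive sums came from Cd79b, which read 21.8 units on the resistant array, against 970 and 1049 units. As deposited Cd79a (-1.15), Irf4 (-1.08) and Prdm1 (-0.85) were also lower on the resistant array. Pax5, Sdc1 and Ms4a1 differed by -0.38, -0.17 and 0.07. The plasma cell gene Jchain read 9.33 units on the resistant array, against 17.4 and 7.91 units. Summed levels on the resistant array and the sensitive arrays were 115 against 322 and 286 units for 5 T cell genes, 34.2 against 73.3 and 64.6 units for 2 erythroid genes and 43.6 against 127 and 93.7 units for 4 megakaryocyte genes. For 6 stromal genes they were 118 against 65.8 and 93.7 units. The part of such cells in the results was not tested. In bulk samples such as these, fewer cells of a type and less RNA per cell cannot be told apart.

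Xbp1 and Dnajb9 rose in the resistant cells, while Hspa5 and Herpud1, the chaperone and degradation genes of the same arm, were not called. Xbp1 read 56680 units on the resistant array, against 14470 and 17604 units on the sensitive arrays (probe mMC022331). The resistant level was 3.53 times the sensitive mean of 16037 ± 2216 units (SD, n = 2). As deposited it differed by 1.83 log2 units (SE 0.21, limma adjusted p = 3.11e-05), and by 2.57 after scaling (SE 0.15, limma adjusted p = 0.0391). It was above that of 97.5% of all genes as deposited and of 97.6% after scaling.

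Dnajb9, a co-chaperone of the ER and a well-known target of spliced Xbp1, moved the same way from a lower intensity. It read 1048 units on the resistant array, against 212 and 200.5 units on the sensitive arrays, a ratio of 5.08 to the sensitive mean. The sensitive arrays were close to each other, and the resistant value lay far outside their gap. It differed by 2.10 log2 units as deposited (SE 0.26, limma adjusted p = 4.21e-05) and by 2.78 after scaling (SE 0.15, limma adjusted p = 0.0391).

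Hspa5 encodes BiP, the main Hsp70 chaperone of the ER, and carries the ERSE printed above. It read 13104 units on the resistant array, against 19075 and 20384 units on the sensitive arrays. The log2 difference was -0.59 as deposited (limma adjusted p = 0.03), -0.57 after quantile normalization and -0.02 after centring on array medians. Only after scaling on bright probes was it above 0, at 0.15 (limma adjusted p = 0.338). None of these values reached the size asked.

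Herpud1, an ER membrane protein that helps degrade misfolded proteins, carries both an ERSE-II and a composite element. It read 17677 units on the resistant array, against 34331 and 33088 units on the sensitive arrays. The log2 difference was -0.93 as deposited and -0.19 after scaling, both below 0 and both short of a call. After scaling, the Xbp1 arm thus held 2 genes more than 2 log2 units above the sensitive cells and 2 within 0.2 of them. On other scales Hspa5 and Herpud1 were lower than that. As deposited they differed by -0.59 and -0.93, and after quantile normalization by -0.57 and -0.97.

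**Figure D1:**
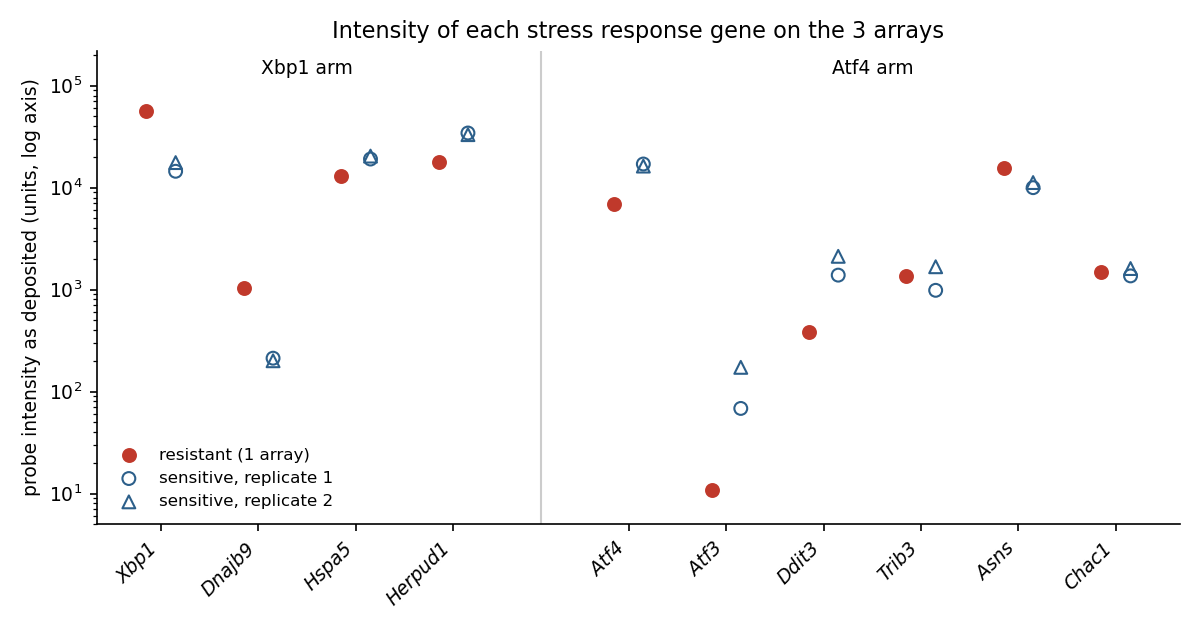
Probe intensity as deposited (log axis) of the 10 genes on the resistant array (filled) and on sensitive replicates 1 and 2 (open circle and triangle), with the Xbp1 arm on the left and the Atf4 arm on the right. The resistant point is above both sensitive points for Xbp1, Dnajb9 and Asns, below both for Hspa5, Herpud1, Atf4, Atf3 and Ddit3, and between them for Trib3 and Chac1.

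In the Atf4 arm no gene was called on both scales. The transcription factor genes Atf4, Atf3 and Ddit3 were below both sensitive arrays on both scales, and Asns was above both. Trib3 and Chac1 lay between the sensitive arrays as deposited and above both after scaling. Atf4 read 6880 units on the resistant array, against 17047 and 16270 units on the sensitive arrays. It was called lower as deposited, at -1.27 log2 units (SE 0.20, limma adjusted p = 0.000261), but not after scaling, where the difference was -0.53 (limma adjusted p = 0.101).

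Ddit3 encodes CHOP, a transcription factor that promotes cell death under lasting stress. It read 383 units on the resistant array, against 1387 and 2120 units on the sensitive arrays, a ratio of 0.218 to the sensitive mean. As deposited it was called lower at -2.03 log2 units (SE 0.26, limma adjusted p = 6.43e-05). After scaling it was still below each sensitive array by more than 1 log2 unit (-1.09 and -1.60), but the limma adjusted p of 0.0918 missed the threshold.

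Atf3, a stress-induced repressor, was dim on every array. It read 10.9 units on the resistant array, close to the bottom of the range, against 68.3 and 173 units on the sensitive arrays. The sensitive arrays were 0.91 log2 units apart, a gap that 1.16% of all genes exceeded. The log2 difference was -1.42 as deposited (limma adjusted p = 0.00538) and -1.17 after scaling (limma adjusted p = 0.188). It was not called on either scale. On both it lay less than 1 log2 unit below sensitive replicate 1 (-0.96 as deposited, -0.76 after scaling). After scaling it missed the adjusted p as well.

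Asns encodes asparagine synthetase, the textbook target of amino acid shortage through Atf4. It read 15594 units on the resistant array, against 9994 and 11216 units on the sensitive arrays, so that the groups did not overlap. The log2 difference was 0.56 as deposited (limma adjusted p = 0.0382), short of the size asked, and 1.30 after scaling, where it was called (limma adjusted p = 0.0429).

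Trib3, a pseudokinase that dampens Akt and Atf4 signalling, read 1355 units on the resistant array, between the 984 and 1675 units of the sensitive arrays. Chac1, which breaks down glutathione, read 1503 units on the resistant array, between 1363 and 1609 units. As deposited their log2 differences were 0.073 for Trib3 (SE 0.28) and 0.020 for Chac1 (SE 0.22). After scaling they were 0.79 for Trib3 (SE 0.38) and 0.74 for Chac1 (SE 0.14), without a call for either (limma adjusted p = 0.236 and 0.0744).

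**Figure D2:**
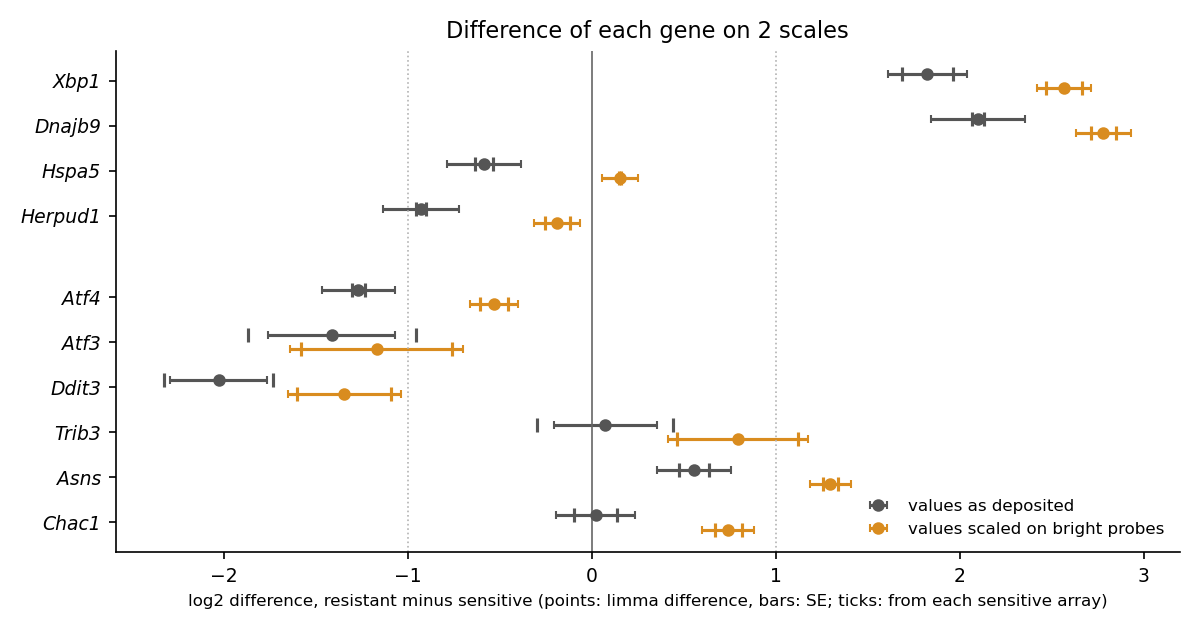
Log2 difference, resistant minus sensitive, for each gene, as deposited (grey) and after scaling on bright probes (orange). Points are limma's difference, bars its SE, ticks the difference from each sensitive array, and dotted lines mark 1 log2 unit. Xbp1 and Dnajb9 lie right of 1 on both scales, Ddit3 and Atf3 lie left of -1 on both, and the sign of Hspa5 differs between the scales.

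Counted over the 10 genes, 2 were called higher on both scales, beside 4.84% of all genes. As deposited, 2 were called lower, Atf4 and Ddit3, beside 18.5% of all genes and 1872 of the 5318 genes of at least 500 units. After scaling, limma called 3 members higher, beside 7.17% of all genes, and 0 lower, beside 5.11% of all genes. At an unadjusted p under 0.05, 2 members were lower on that scale, and quantile normalization called 1 lower. The median log2 difference was 0.62 for the Xbp1 arm and -0.62 for the Atf4 arm as deposited, and 1.36 and 0.11 after scaling. The Atf4 arm's median therefore changed sign with the scale. The gap between the medians, Atf4 arm minus Xbp1 arm, was -1.24 as deposited and -1.25 after scaling, since 1 factor per array cancels in it. Within each arm the differences spread wider than this gap, from -0.93 to 2.10 in the Xbp1 arm and from -2.03 to 0.56 in the Atf4 arm as deposited, and the arms overlapped. With 1 array against 2, an exact permutation test of any single value cannot go below p = 0.333, so none was run.

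The sensitive arrays themselves differed in some genes of the Atf4 arm. Trib3 was higher in sensitive replicate 2 than in replicate 1 by 0.74 log2 units, a gap that 2.56% of all genes exceeded, and Ddit3 by 0.59, which 5.19% exceeded. In the Atf4 arm 5 of 6 genes were higher in replicate 2, beside 65.0% of all genes. The arm's median gap was 0.41, against 0.076 over all genes and 0.021 in the Xbp1 arm. Of the 132 genes of the other lists, 84 were higher in replicate 2, a share close to that of all genes. The gaps of those genes ran both ways, from -0.73 for Derl3 to 1.40 for Cebpb. What set the replicates apart was not tested.

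Upstream of both arms, calls among the sensor genes depended on the scale. Of 12 measured genes of sensors and membrane-bound factors, 1 was called higher and 2 lower as deposited. After scaling, 4 were called higher, beside 7.17% of all genes, and 0 lower. Mbtps2 alone was called higher on both scales. It encodes the protease that makes the second cut in Atf6, and it read 1699 units on the resistant array, against 404 and 430 units on the sensitive arrays (log2 difference 1.91 as deposited, limma adjusted p = 3.86e-05). Its second, dimmer probe gave 1.94. Eif2ak3 read 2055 units on the resistant array, against 1185 and 1087 units, and was called after scaling alone (1.55, and 0.83 as deposited). The same held for Atf6b, a relative of Atf6 (1.71, and 0.97 as deposited), and for Mbtps1, the protease of the first cut (1.30, and 0.57 as deposited). Ern1 read 4.67 units on the resistant array, against 2.48 and 51.4 units, and Atf6 read 21.8 units, against 38.5 and 50.1 units, so neither sensor gave a level clear of the dim end of the range. Wfs1, an ER membrane protein gene, differed by 1.15 as deposited and 1.78 after scaling without a call. Creb3l1 (-1.05) and Creb3l3 (-1.01) were called lower as deposited only, Creb3l1 with 9.33 units on the resistant array. The remaining Creb3, Creb3l2 and Creb3l4 differed by -0.70, -0.54 and 0.03 and were not called.

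Among the eIF2 kinases and their counterparts, 1 of 15 genes rose and 1 fell, beside 4.84% and 5.1% of all genes. Counts this small do not set the list apart. Eif2s1, the phosphorylated subunit of eIF2, rose to 876 units on the resistant array, against 99.4 and 141 units on the sensitive arrays (log2 difference 2.45, limma adjusted p = 3.26e-05). Eif2ak2, the kinase PKR that senses double-stranded RNA and is induced by interferon, fell to 162 units, against 637 and 690 units (-1.75, limma adjusted p = 0.000137). The amino acid sensor Eif2ak4 differed by -0.26 and the haem-sensing kinase Eif2ak1 by -1.01 as deposited, and neither was called. Ppp1r15a, the stress-induced phosphatase subunit that reverses eIF2 phosphorylation, read 104 units on the resistant array, against 170 and 278 units, and was not called. Its constitutive relative Ppp1r15b was called higher after scaling alone (1.33). Of the co-chaperone and kinase inhibitor Dnajc3, the 2 probes had opposite signs as deposited, 0.55 for the brighter and -0.74 for the dimmer. On that scale the median over all genes of at least 500 units was also -0.74. After scaling the brighter probe differed by 1.28. Eif2b3 (-1.60), a subunit of the eIF2 exchange factor, and Impact (-1.09), an inhibitor of Eif2ak4, were called lower as deposited only.

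Several genes of ER protein import rose beside Xbp1. In the list of translocation and signal peptide processing, 4 of 18 measured genes rose and 1 fell. The shares over all genes of at least 500 units were 8.07% and 9.31%. The list's median log2 difference was 0.63 as deposited and 1.37 after scaling, against -0.74 and -0.03 over those brighter genes. Spcs1, a signal peptidase subunit, read 25712 units on the resistant array, against 5858 and 5975 units on the sensitive arrays (log2 difference 2.11, limma adjusted p = 4.93e-06). Spcs3, its partner subunit, read 28051 units, against 9065 and 8768 units (1.65). The translocon-associated genes Ssr2 and Ssr3 differed by 1.69 and 1.57. Sec61a1, the pore of the translocon, differed by 0.73 and was called after scaling alone, while Sec61b, a small subunit of the same channel, was not called. As deposited Sec61b lay below the sensitive arrays by -1.04 and -0.97 log2 units (limma adjusted p = 0.00187), just short of a call, and after scaling it differed by -0.29. Srp72, part of the signal recognition particle, was called lower on both scales with 1.56 units on the resistant array, near 0, against 1544 and 1578 units on the sensitive arrays. Whether that spot failed was not tested. Srp19 was called lower as deposited (-1.75) but not when scaled (-1.05).

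Of 16 measured genes of ER chaperones and folding, 3 rose, beside 8.07% of all genes of at least 500 units. The list median was 0.22 as deposited and 0.96 after scaling. Ero1a, an oxidase that drives disulfide formation, read 3763 units on the resistant array, against 215 and 330 units on the sensitive arrays (log2 difference 3.59, limma adjusted p = 7.78e-07). Pdia6, a disulfide isomerase, rose by 1.97, and Dnajc10, an ER reductase, rose by 1.19. The abundant chaperone genes Hsp90b1 and Calr were not called, with log2 differences of -0.50 and -0.23 as deposited and 0.24 and 0.51 after scaling.

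For ER-associated degradation 2 of 17 genes rose and 1 fell, beside 8.07% and 9.31% of all genes of at least 500 units. These counts do not set the list apart. Selenos, a membrane selenoprotein of the retrotranslocation complex, read 15817 units on the resistant array, against 3793 and 4858 units on the sensitive arrays (log2 difference 1.87, limma adjusted p = 2.58e-05). Edem2, which starts mannose trimming of misfolded glycoproteins, rose by 1.71, while Vcp, the ATPase that extracts proteins from the membrane, fell by 2.60. Derl3, a retrotranslocation gene, read 28.0 units on the resistant array, against 584 and 331 units on the sensitive arrays. It was called lower as deposited (-2.66). After scaling the difference was -2.27, and the call was lost on the limma adjusted p of 0.0811. Sel1l and Edem1 were not called (0.17 and 0.27).

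**Figure D3:**
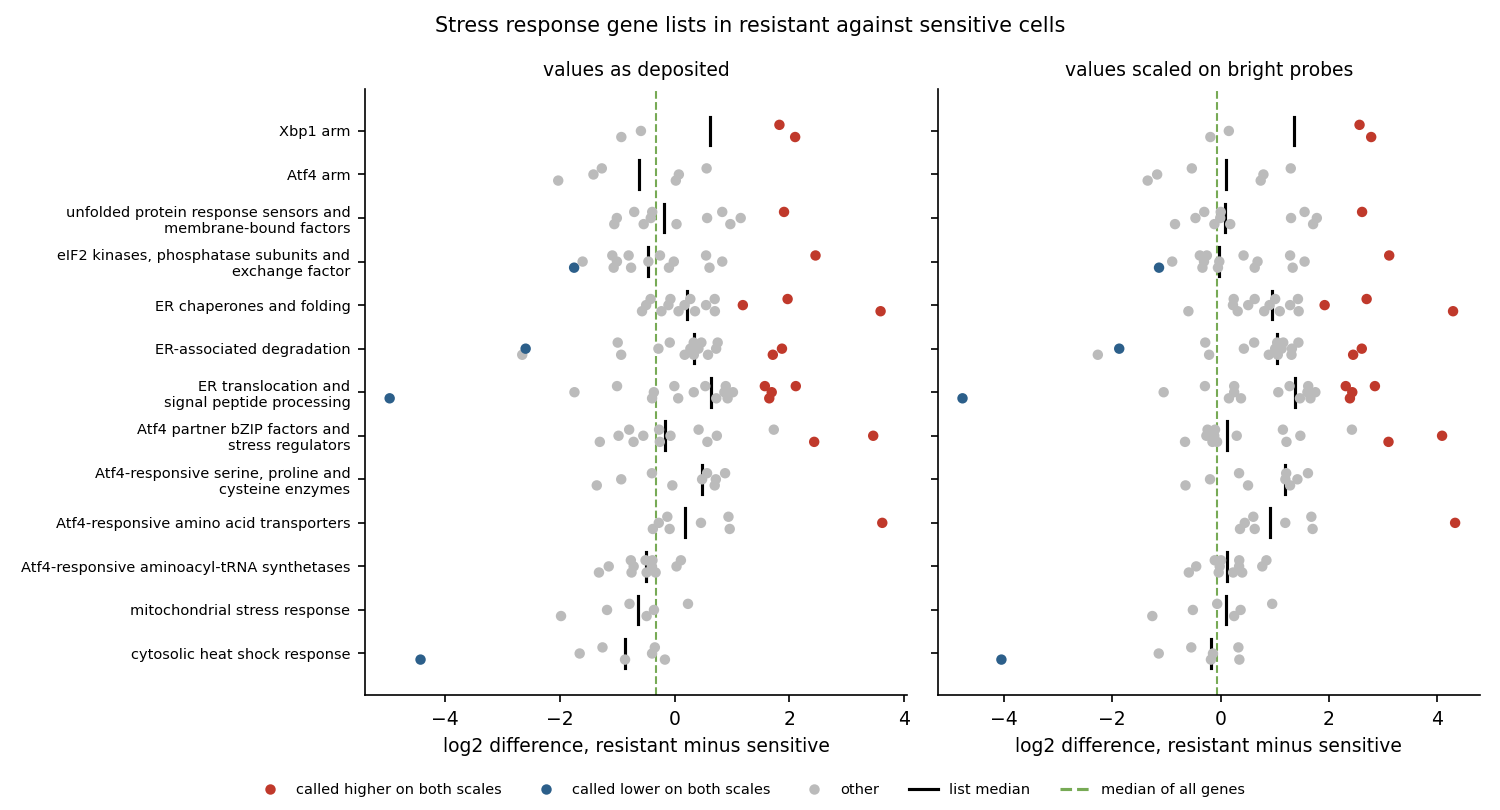
Log2 difference, resistant minus sensitive, of every measured gene of each list, as deposited (left) and after scaling on bright probes (right). Red and blue points were called higher and lower on both scales, black bars are list medians and the dashed line is the median of all genes. The ER translocation list has its median at 0.63 as deposited and 1.37 after scaling, while the tRNA synthetase list lies at -0.50 and 0.12.

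In the lists tied to Atf4, most genes were not called on both scales, and the few that were called on both rose. Genes called lower in these lists were so as deposited only. Of 14 partner factors and stress regulators, 2 rose, beside 4.84% of all genes. Stc2, a secreted glycoprotein gene, read 1101 units on the resistant array, against 43.5 and 67.3 units on the sensitive arrays (log2 difference 3.46, limma adjusted p = 2.84e-06). Ddit4, an inhibitor of mTORC1 signalling, rose by 2.43. Cebpb, a bZIP partner of Atf4, read 1226 units on the resistant array, against 188 and 575 units on the sensitive arrays. It was called higher as deposited (1.73). After scaling the difference was 2.43, and the call was lost on the limma adjusted p of 0.129. Nupr1, a stress-induced chromatin protein gene, was called lower as deposited only (-1.30), and Cebpg (-0.26) and Atf5 (0.73) were not called on that scale. Atf5, a close relative of Atf4, was called higher after scaling alone (1.47).

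Slc7a11, the cystine transporter that supplies glutathione synthesis, had the highest positive difference in log2(intensity + 50) of the 132 genes of the other lists, on both scales. By the plain ratio of intensities to the sensitive mean, Stc2 (19.9) and Ero1a (13.8) stood above it. It read 5070 units on the resistant array, against 317 and 425 units on the sensitive arrays, a ratio of 13.7 to the sensitive mean. It rose by 3.62 log2 units as deposited (SE 0.24, limma adjusted p = 3.21e-07) and 4.33 after scaling. Its promoter window held 2 composite elements, 1 on each strand, in the stretch chr3:50443623-50443709 on the minus strand, shown to set this gene beside Asns and Chac1.
Slc7a11: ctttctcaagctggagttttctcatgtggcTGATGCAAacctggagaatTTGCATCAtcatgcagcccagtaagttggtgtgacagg
Its partner chain Slc3a2 differed by 0.96 and was called after scaling alone (1.70). Another Atf4-responsive transporter, Slc7a5, was not called (-0.13 as deposited, 0.61 after scaling). Of 8 transporter genes, 1 rose, beside 8.07% of all genes of at least 500 units. As deposited 4 of the 8 were above 0, with a list median of 0.19. After scaling all 8 were above 0, with a median of 0.91. Over all genes of at least 500 units the medians were -0.74 and -0.03.

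None of the biosynthetic and tRNA charging genes was called on both scales. The list of 9 serine, proline and cysteine enzymes had a median of 0.48 as deposited and 1.20 after scaling. In it Mthfd2, a mitochondrial folate enzyme, was called lower as deposited only (-1.36), while the serine synthesis genes Psat1 (-0.40) and Psph (0.48) were not called on that scale. After scaling alone 3 of the 9 were called higher, beside 7.17% of all genes, namely Psph (1.20), Cth (1.61), which makes cysteine from cystathionine, and Gpt2 (1.42), a mitochondrial alanine transaminase. Among 12 tRNA synthetase and tRNA export genes, Eprs (-1.32) and Cars (-1.15) were called lower as deposited only. Aars and Gars differed by -0.51 and -0.40 as deposited and were not called on either scale. The median of that list was -0.50 as deposited and 0.12 after scaling, so its sign followed the scale. Of 6 genes of mitochondrial protein stress, the co-chaperonin Hspe1 (-1.98) and the protease subunit Clpx (-1.18) were called lower as deposited only. After scaling Hspe1 differed by -1.26 (limma adjusted p = 0.0507). Hspa9 and Lonp1 differed by -0.49 and -0.36 as deposited and were not called on either scale. In the cytosolic heat shock list 1 of 7 genes fell, beside 5.1% of all genes. It was Hspb1, a small heat shock protein. Hspb1 read 23.3 units on the resistant array, against 1840 and 1268 units on the sensitive arrays (log2 difference -4.43, limma adjusted p = 1.86e-07). Hspa1b (-1.65) and the master regulator Hsf1 (-1.26) were called lower as deposited only, and Hspa1b differed by -1.14 after scaling (limma adjusted p = 0.0532). Hspa1a, near 0 units on every array, and Hsph1 differed by -0.17 and -0.39 as deposited and were not called on either scale.

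The lists were also read by promoter element. Among the chaperone and folding genes with a window, 7 of 14 held an ERSE, namely Calr, Canx, Creld2, Dnajc3, Ero1b, Hsp90b1 and Pdia6. The Pdia6 stretch, chr12:17266461-17266539 on the plus strand, is shown because Pdia6 was the one gene of the other lists with an ERSE that rose.
Pdia6: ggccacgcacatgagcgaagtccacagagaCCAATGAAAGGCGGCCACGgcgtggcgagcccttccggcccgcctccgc
Over all 19 measured genes with an ERSE, 1 was called higher and 1 lower on both scales, and the median log2 difference was -0.21 as deposited and 0.07 after scaling. For the 458 measured genes with a composite element the median was -0.29 as deposited and -0.09 after scaling, against -0.34 and -0.06 for all 13980 measured genes with a window. Of 12 genes of the other lists that rose and had a window, 1 held an ERSE and 1 a composite element.

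**Figure D4:**
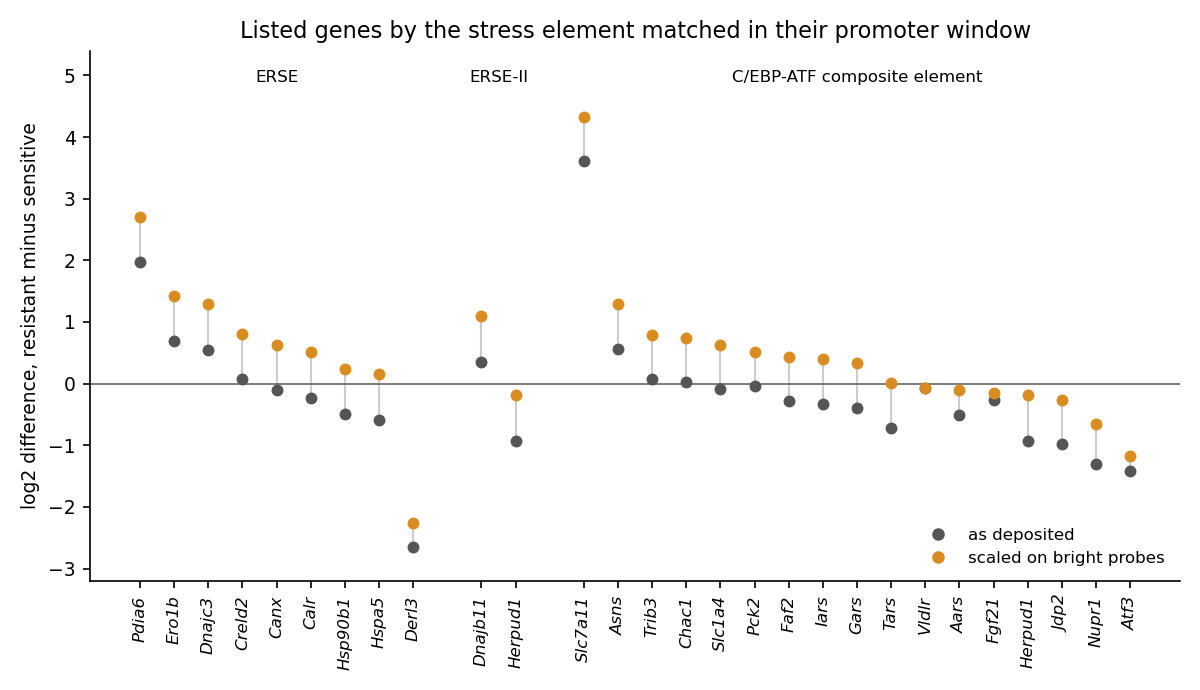
Log2 difference, resistant minus sensitive, of the listed genes whose promoter window holds an ERSE, an ERSE-II or a C/EBP-ATF composite element, as deposited (grey) and after scaling on bright probes (orange), ordered by the scaled value. Pdia6 stands highest among the ERSE genes at 1.97 and 2.70, and Slc7a11 among the composite element genes at 3.62 and 4.33.

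Likeness of pattern was measured as the distance between genes in the plane of their 2 log2 differences from the sensitive arrays, over 3 arrays and 132 genes of the other lists. Spcs1 (distance 0.0695) and Pdia6 (0.19) were nearest to Dnajb9, the member of the Xbp1 arm with the largest difference. For Ddit3, the member of the Atf4 arm with the largest difference, the nearest were Hspe1 (0.50) and Eif2ak2 (0.52), both farther from it.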

How the data were processed

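Per the labels' protocols, amplified aRNA carrying Cy5 was put on arrays read in 1 colour. The authors deposited probe intensities for all 3 arrays in 1 table, on a linear scale that reaches below 0. Details of scanning, background correction and normalization are not given in sources used here. Quantile normalization had not been applied, since sorted values differed between arrays. Precision is limited by having only 3 arrays, and spots were not screened by flags.

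Of 26423 probes, 20377 had 1 gene symbol in the platform's annotation, 0 several and 6046 none. Of these symbols, 18213 matched a current mouse gene of GRCm38.p6, 2126 an older name and 38 none. Each gene was represented by its brightest probe on average over the 3 arrays. The deposited intensities were tested as log2(intensity + 50), which understates the change of dim genes.

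limma 3.58.1 in R 4.3.3 (lmFit, eBayes with a variance trend) was fitted to all genes, with 1 residual degree of freedom. The prior had 10.98 degrees of freedom, or 1.433 after scaling on bright probes. As deposited, 0 genes of the size asked failed the adjusted p. After scaling, 1039 of 3217 did. The limma step was first tested on simulated data. Those arrays were drawn around the sensitive means with the fitted spread. They could not check the spread of the lone resistant array or its lower brightness. Python 3.11.15, pandas 2.3.3, numpy 2.4.6 and matplotlib 3.10.9 did the rest.

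The members, lists and most tests were chosen with earlier results of these data known. Genes were named by rule, on calls as deposited. These were the 10 members, the sensor genes, and the first 7 and the called genes of the eIF2 list. From each other list came up to 4 called genes, ranked on the lesser of the 2 array-wise differences. The first 2 listed genes not called were added. The genes Ssr2, Ssr3, Cth and Gpt2 and the ERSE genes fall outside the rule and were chosen after their values were seen. In 7 lists, 1 or 2 genes were not analysed here. Alternatives were quantile normalization, centring on array medians, scaling on bright probes, other offsets, a floor, filters on dim genes, the mean of a gene's probes, other variance models and thresholds, and leaving out each sensitive array.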

Additional observations from a re-analysis of the deposited data

How the results depend on the processing

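The calls of Xbp1 and Dnajb9 held under 12 of the 13 alternatives that give a test. The exception was a floor of 50 units in place of the offset, where 0 members were called higher and 0 lower, Xbp1 and Dnajb9 differed by 1.83 and 2.34, and 133 genes were called higher and 26 lower in all. The prior of limma's fit was then 0.7445 degrees of freedom. Part of the 12 was fixed in advance. The looser thresholds, an adjusted p under 0.1 or a log2 difference of 0.6, could not remove a call. The filters on dim genes, the mean of probes and the other variance models left both differences unchanged, at 1.83 and 2.10. Those settings could alter the adjusted p alone. The count of members called lower was 2 as deposited, 0 after scaling on bright probes, 1 after quantile normalization (Atf4), 1 after centring (Ddit3) and 4 with a log2 difference of 0.6 asked. After centring the prior was infinite, so the calls there rest on the variance trend over all genes. A gene's own spread had no weight in them. Hspa5 differed by 0.15 after scaling on bright probes, against -0.59 as deposited, -0.57 after quantile normalization and -0.02 after centring. The Xbp1 arm's median was 1.36 after scaling and 1.19 after centring. The Atf4 arm's median was -0.62 as deposited, 0.11 after scaling, 0.0202 without genes below the median (which leaves out Atf3), -0.28 after quantile normalization and -0.057 after centring. The gap between the arm medians, -1.24 as deposited, was -0.85 after quantile normalization, -1.08 with an offset of 100 and -0.60 without genes below the median. Without each sensitive array in turn it was -1.29 and -1.12, the Atf4 arm's median was -0.77 and -0.41 and the Xbp1 arm's was 0.52 and 0.71. These fits compare 1 array with 1 and give no test, so counts of calls have no value there. Over all genes, 3284 were called lower as deposited, against 906 after scaling on bright probes, 1219 after quantile normalization, 1373 after centring and 5511 with a log2 difference of 0.6 asked, and 928 were called higher as deposited, against 1600 after centring. The split of calls into higher and lower was thus 928 and 3284 as deposited and 1272 and 906 after scaling. Atf3 was called lower with an offset of 16 (-2.23). No paired analysis was possible because the groups share no replicate numbers that pair them, with 1 resistant array.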
